A study of Mus musculus with 2 samples.

Results

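The cells described here were CD8 T cells of mouse gliomas that carried transcripts of granzyme K (Gzmk) or of the surface antigen Ly6C2 (Ly6c2), without detected Pdcd1 or Havcr2 and with few cell cycle transcripts. They were chosen by their own counts of unique molecular identifiers (UMIs, each standing for 1 captured transcript). A cell needed at least 2 UMIs of the Cd3 genes Cd3d, Cd3e and Cd3g and at least 2 of Cd8a and Cd8b1, with 0 of Cd4 and of Foxp3, to count as a CD8 T cell. Among CD8 T cells, a member had at least 2 UMIs of Gzmk and Ly6c2 together, 0 of Pdcd1 and Havcr2, at most 1 of Xcl1, and at most 2 of Mki67, Top2a, Birc5 and Ccna2 together. There were 1683 members among 15723 cells kept, and 3774 other CD8 T cells. The study sorted living host immune cells, positive for CD45.2 and negative for CD45.1, from gliomas of mice and profiled them on the BD Rhapsody platform, in which cells settle into microwells with barcoded beads. The tumours had been treated with EM, an agent that the labels do not spell out and whose library title carries 72 h, or with PBS, the saline vehicle. Each treatment is represented by 1 library, with 1287 members in EM and 396 in PBS. The labels give neither the glioma line, nor the mouse strain, age or sex, nor the number of animals in a library. There is therefore no replicate and no test in what follows, and every 95% interval covers counting error only.

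CD8 T cells recognise peptides on MHC class I and kill their targets with perforin and granzymes. Granzyme K marks effector memory CD8 T cells that keep some capacity to divide and to migrate, and in tumours it is often described in cells that have not reached terminal exhaustion. Ly6C is carried by memory CD8 T cells and is raised by type I interferon, which signals through the receptor IFNAR and the kinases JAK1 and TYK2 to switch on antiviral genes. Circulating naive and central memory T cells are known instead by CCR7, which guides them into lymph nodes, and by the sphingosine phosphate receptor S1pr1, which lets them leave.

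The T cell identity held in both libraries, and the label of effector cells held in part. The 10 T cell markers, among them Trac and Lck, were all detected, and summed to 7976 CPM (the UMIs of a gene or list as a part of all UMIs of the cells summed, brought to the same total in every class) in EM members and 5801 CPM in PBS members. They include Cd3d, Cd3e and Cd3g, which the rule itself requires, so this sum is partly set by the rule. Gzmk was found in 46.2% of EM members (95% interval 43.4 to 48.92) and 37.6% of PBS members (32.84 to 42.6), so that most cells entered through Ly6c2 alone, at 53.8% of EM and 62.4% of PBS members. Those figures are set by the rule and by depth. With each member reduced to 1000 UMIs, which left out 16 EM members and 0 PBS members as too shallow, Gzmk was found in 29.4% of EM members and 14.1% of PBS members. In cells gated as macrophages, which do not make Gzmk, it was found in 0.217% of EM and 1.14% of PBS cells. Their median depths were 984 and 8092 UMIs, against 2099 and 4232.5 UMIs for members. Ly6c2 was less confined: in EM it was found in 25.5% of macrophage-gate cells and 35.8% of cells gated as B cells, against 97.9% of members. Cd8a, Cd8b1, Gzmk and Ly6c2 together summed to 2048.4 CPM in EM and 187.8 CPM in PBS macrophage-gate cells. In B-cell-gate cells they summed to 1758.4 and 990.1 CPM, and in members to 8526.6 and 4120.5 CPM. Whether this Ly6c2 was made by the gated cells themselves or came from other cells was not tested, nor was the part of stray Ly6c2 in the shares. Members without Gzmk held genes of recirculating cells, described with the quiescence genes, so the cells are called Gzmk Ly6c2 CD8 T cells and not effector cells.

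EM members summed to 2926494 UMIs and PBS members to 1730145 UMIs, and the median number of genes per member was 1123 in EM and 1883.5 in PBS. The libraries also differed in sex-linked genes: Xist stood at 341 CPM in EM and 0.578 CPM in PBS members, and the Y-linked Ddx3y at 5.13 CPM in EM and 216.7 CPM in PBS members, so sex of origin and treatment cannot be told apart. Both libraries used 66 cell barcodes in common, carried by 12 EM and 7 PBS members. Markers of other lineages were low. The 10 macrophage and microglia markers summed to 206.7 CPM in EM and 375.7 CPM in PBS members, with 0 of them undetected in EM and 1 in PBS. The 5 neutrophil markers summed to 3.08 CPM in EM and 24.3 CPM in PBS members (2 at 0 in EM, 0 in PBS), the 6 dendritic markers to 9.91 and 14.45 CPM (0 and 1 at 0), the 6 B cell markers to 62.5 and 29.5 CPM (0 at 0 in each), the 4 plasma cell markers to 70.4 and 54.9 CPM (1 and 2 at 0) and the 4 erythroid markers to 1.71 and 0 CPM (3 and 4 at 0), EM given before PBS in each. The 7 glioma and brain markers summed to 128.1 CPM in EM and 137 CPM in PBS members, with 4 and 5 at 0. Without the cells that carried at least 2 UMIs of B, plasma, macrophage, dendritic, neutrophil, erythroid or brain markers, 1059 EM and 214 PBS members were left, and the share ratio and interferon median given below were 4.51 and 1.89. Among lymphoid lists, NK cell markers summed to 3961 CPM in EM and 1564 CPM in PBS members (1 of 6 at 0 in each), with Gzma the main part, and gamma delta T cell markers to 203.3 CPM in EM and 237 CPM in PBS members (1 of 4 at 0 in each). Helper and regulatory T cell markers summed to 286 CPM in EM and 523.1 CPM in PBS members (2 of 5 at 0 in each). The 2 at 0 are Cd4 and Foxp3, which the rule sets to 0, so the sum comes from Cd40lg, Ctla4 and Il2ra. The 4 monocyte markers summed to 481.5 CPM in EM and 253.2 CPM in PBS members (0 at 0 in each), mainly through Ccr2, which T cells also express. The part of these lymphoid and monocyte markers in the results was not tested.

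Gzmk Ly6c2 cells made up most CD8 T cells of the EM library and a small part of those of the PBS library. Of 2375 EM CD8 T cells, 1287 were members, or 54.2% (exact Clopper-Pearson 95% interval 52.16 to 56.21). Of 3082 PBS CD8 T cells, 396 were members, or 12.8% (11.69 to 14.08), which gives a ratio of 4.22 (3.77 to 4.73). CD8 T cells as a whole were a smaller share of the kept cells in EM, at 29.8%, than in PBS, at 39.7%. The ratio was higher at equal depth. With every cell reduced to 1000 UMIs before the rule, members were 823 of 1384 CD8 T cells in EM (59.5%) and 140 of 1530 in PBS (9.15%). Fewer cells than at full depth then counted as CD8 T cells, of which 27 in EM and 9 in PBS were too shallow to be reduced. Over 10 draws the shares ran from 59 to 62.6% in EM and from 8.3 to 9.66% in PBS.

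Both the admitting and the excluding genes differed between the libraries. At least 2 UMIs of Gzmk and Ly6c2 were found in 87.6% of EM and 47.8% of PBS CD8 T cells. Freedom from the checkpoint genes Pdcd1, which encodes PD-1, and Havcr2, which encodes TIM-3, was found in 73.3% of EM and 28.6% of PBS CD8 T cells. The other CD8 T cells were divided by the criterion they failed, taken in turn. Cycling cells were 10.9% of EM and 19.8% of PBS CD8 T cells. Non-cycling cells with Pdcd1 or Havcr2 were 22.1% of EM and 54.8% of PBS CD8 T cells. Cells with more than 1 UMI of Xcl1, a chemokine for cross-presenting dendritic cells, were 5.18% in EM and 0.552% in PBS, and cells short of Gzmk and Ly6c2 were 7.54% in EM and 12% in PBS.

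**Figure D1:**
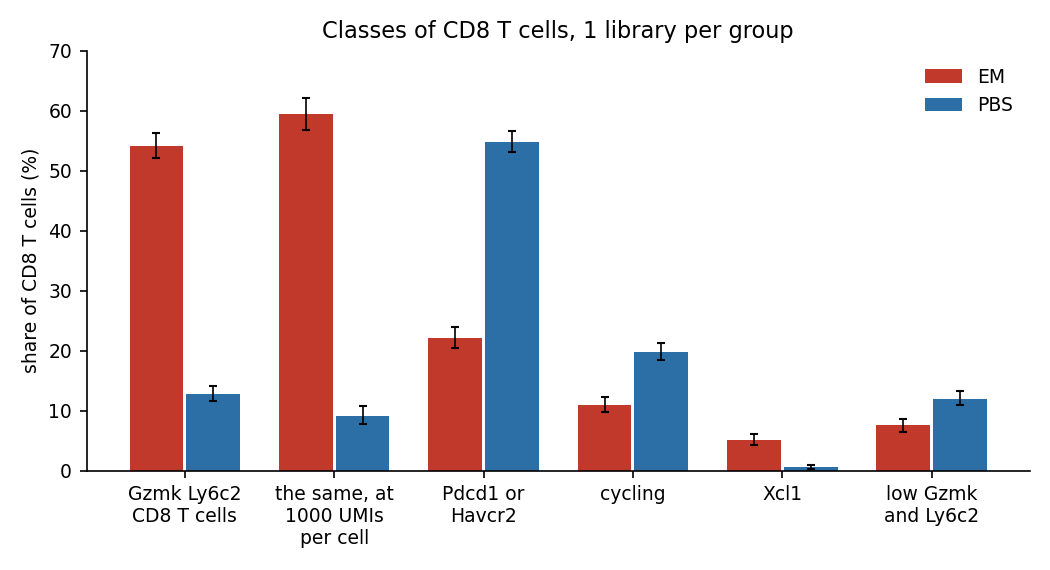
Share of CD8 T cells (y axis, percent) in each class by library, EM and PBS, with exact 95% intervals for counting error. Gzmk Ly6c2 cells were 54.2% of EM and 12.8% of PBS CD8 T cells, and the gap was wider at 1000 UMIs per cell. The other classes are shown at full depth only.

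At the edge of the rule, 89 EM and 80 PBS members had exactly 2 UMIs of Gzmk and Ly6c2, and 79 EM and 116 PBS cells with 1 such UMI were left out though they met the other criteria. Cells just inside carried Gzmb at 3025 CPM in EM and 2958 CPM in PBS, and cells just outside at 2259 CPM in EM and 2517 CPM in PBS. Tcf7, a factor of naive and memory T cells, stood at 204.4 CPM in EM and 56.2 CPM in PBS cells just inside, and at 320.6 CPM in EM and 26.25 CPM in PBS cells just outside. Ly6c2 itself stood at 5490.5 CPM in EM and 1740 CPM in PBS members and Gzmk at 365.3 CPM in EM and 140.5 CPM in PBS members, as the rule partly fixes. Its near-identical neighbour Ly6c1 had 2 UMIs in each library, so the split of reads between these paralogs is uncertain.

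Type I interferon genes were higher in EM members than in PBS members throughout the list. All 43 measured genes of the list had ratios above equality, 35 of them at least 2-fold, and their median log2 ratio was 1.66. Genes were taken as measured with at least 20 UMIs over both libraries. Of all 9394 genes measured in members, 391 (4.16%) were at least 2-fold higher and 728 (7.75%) at least 2-fold lower in EM, and the median log2 ratio was −0.11. Ratios above equality were found for 3909 of the 9394 genes, the share to set beside the list counts for members given below. With TMM scaling, which moved the median of all genes to 0.05, the same counts were 557 and 506, and with cells reduced to 1000 UMIs they were 699 and 412. Summed over the list, type I interferon genes made up 10187 CPM in EM and 3499 CPM in PBS members.

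The transcription factor Irf7, which amplifies interferon production, stood at 136 CPM in EM and 22.5 CPM in PBS members, a log2 ratio of 2.59 (2.12 to 3.11). It overlaps Phrf1 on the opposite strand, and whether counting used strand is not given in the sources used here. Stat2, a transducer of the receptor's signal, stood at 175.6 CPM in EM and 68.8 CPM in PBS members, and Irf9 at 203.3 CPM in EM and 108.7 CPM in PBS members.

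Among the effectors, the ubiquitin-like modifier Isg15 stood at 176 CPM in EM and 29.5 CPM in PBS members, a log2 ratio of 2.58 (2.16 to 3.02). Its conjugating enzyme Ube2l6, at 88.8 CPM in EM and 5.78 CPM in PBS members, had a log2 ratio of 3.94 (3.04 to 5.02). Usp18, which removes ISG15 and restrains the receptor, stood at 140.1 CPM in EM and 31.2 CPM in PBS members. All 3 of these genes were higher in EM. The most abundant gene of the list in EM was Ifi27l2a, at 1145 CPM in EM and 122.5 CPM in PBS members (log2 ratio 3.22, interval 3.02 to 3.43). The exonuclease Isg20 stood at 455.5 CPM in EM and 86.7 CPM in PBS members, and the oligoadenylate synthases Oas2 at 28 CPM in EM and 1.73 CPM in PBS members and Oas3 at 91.9 CPM in EM and 22 CPM in PBS members. The RNA-binding proteins Ifit1, at 287.7 CPM in EM and 91.3 CPM in PBS members, and Ifit3, at 284 CPM in EM and 74 CPM in PBS members, were higher as well. The smallest ratio in the list was that of Ifit2, at 66.6 CPM in EM and 57.2 CPM in PBS members, whose interval of −0.14 to 0.58 held equality.

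The interferon genes were spread over nearly all EM members and not carried by a few cells. With each cell reduced to 1000 UMIs, the median member held 9 UMIs of the list in EM (lower and upper quartiles 5 and 13) and 2 in PBS (1 and 5). Members without any UMI of the list were 0.708% in EM and 12.6% in PBS. The other CD8 T cells held a median of 7 in EM and 2 in PBS. Their list median was 2.21 between EM and PBS, above that of members. In both libraries members stood above them, by a median log2 ratio of 0.54 in EM and 0.85 in PBS. The rule admits members through Ly6c2, itself raised by type I interferon, and the part of this in that gap was not tested. In other CD8 T cells, 446 of 12055 measured genes (3.7%) were at least 2-fold higher and 1692 (14%) at least 2-fold lower in EM, and 38 of 43 interferon genes were at least 2-fold higher. The difference between the CD8 classes was not tested.

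**Figure D2:**
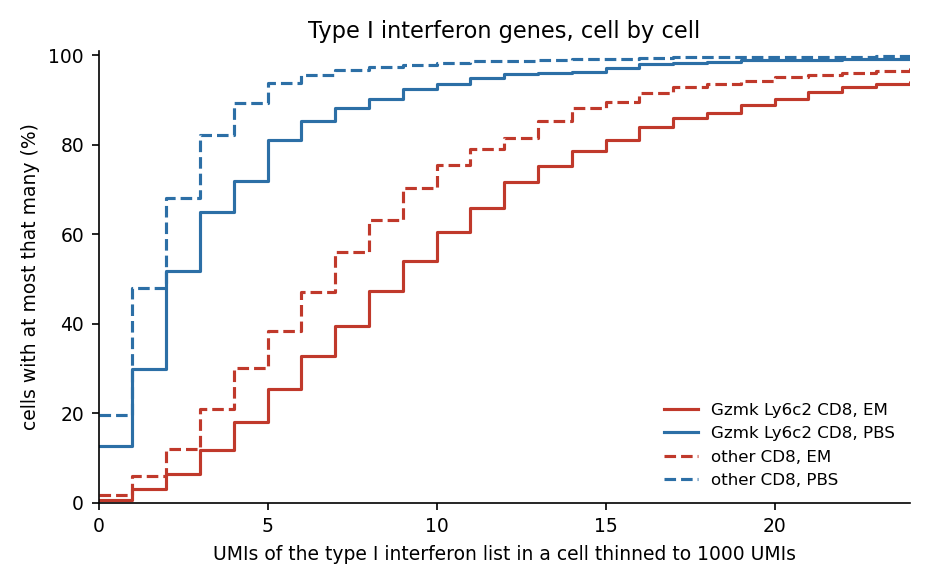
Cumulative share of cells (y axis, percent) by UMIs of the type I interferon list in a cell reduced to 1000 UMIs (x axis), for Gzmk Ly6c2 CD8 T cells (solid) and other CD8 T cells (dashed) of each library. The EM curves lie to the right of the PBS curves, with medians of 9 and 2 UMIs in Gzmk Ly6c2 cells.

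Promoters of these genes are shown because the genes of the list were higher together, with the core of the interferon-stimulated response element, a sequence found in promoters of many interferon-induced genes, in capitals. The motif searched was GAAANNGAAA on the gene's strand or TTTCNNTTTC for the opposite strand, overlapping matches included, in RefSeq windows of GRCm38.p6 from 250 bases before to 50 bases after each start. Of 43 measured list genes, 34 had a window and 20 of these (58.8%) held a match, against 1131 of 32851 windows of all genes (3.44%) and 320 of the 7550 measured genes with a window (4.24%). The stretches below run 5′ to 3′ on the gene's strand and keep 15 bases on each side.
Isg15: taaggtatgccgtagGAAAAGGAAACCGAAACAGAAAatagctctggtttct
Ifit3: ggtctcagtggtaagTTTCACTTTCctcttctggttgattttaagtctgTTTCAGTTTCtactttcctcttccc
Ifit1: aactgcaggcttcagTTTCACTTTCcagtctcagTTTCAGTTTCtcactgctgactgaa
Oas3: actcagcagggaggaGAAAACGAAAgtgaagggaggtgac
The Isg15 stretch lies at chr4:156200860-156200911 on the minus strand and holds 3 overlapping matches, which begin 78 to 66 bases before the start. The Ifit3 stretch (chr19:34583358-34583431, plus strand) and the Ifit1 stretch (chr19:34640770-34640828, plus strand) hold 2 matches each, and the Oas3 stretch (chr5:120777710-120777749, minus strand) holds 1. No match was found in the windows of Ly6c2 or Gzmk, which says only that these letters are not there. Among the other lists, a match was found for 11 of 18 interferon gamma and GTPase genes with a window (61.1%), 4 of 16 cytotoxic genes (25%) and 1 of 21 quiescence and recirculation genes (4.76%). A match is a description of the sequence and not a site shown to be bound.

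Genes that respond mainly to interferon gamma differed less. Of 25 measured, 20 had ratios above equality and 6 were at least 2-fold higher in EM members, with a median log2 ratio of 0.47. The guanylate-binding protein gene Gbp2 stood at 286.7 CPM in EM and 116.2 CPM in PBS members, while the GTPase gene Irgm2, which overlaps Igtp, stood at 52.6 CPM in EM and 75.7 CPM in PBS members. Of 21 MHC class I and antigen processing genes, 19 were above equality and 2 were at least 2-fold higher, with a median of 0.47. The immunoproteasome subunit Psmb9 stood at 155.1 CPM in EM and 76.3 CPM in PBS members, and the peptide transporter Tap1, which overlaps it on the other strand, at 284.6 CPM in EM and 297.7 CPM in PBS members.

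**Figure D3:**
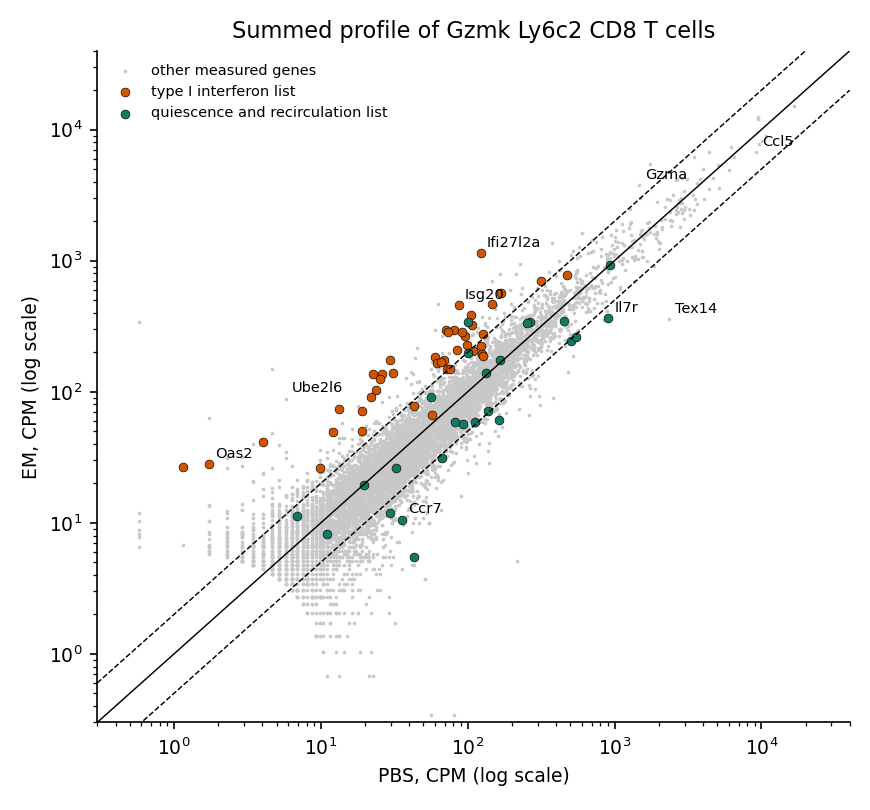
Summed CPM of each measured gene in Gzmk Ly6c2 CD8 T cells, PBS on the x axis and EM on the y axis, both log scales, with lines of equality (solid) and of 2-fold difference (dashed). Type I interferon genes lie above equality, while quiescence and recirculation genes fall on both sides, with Ccr7 and Il7r below. Genes with 0 UMIs in a library cannot be drawn on these axes.

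Granzymes A and B were higher and perforin was lower in EM members. Granzyme A (Gzma), a tryptase delivered into target cells, stood at 3759 CPM in EM and 1465 CPM in PBS members, a log2 ratio of 1.36 (1.30 to 1.42). It was found in 44.6% of EM and 28.3% of PBS members (38.3% and 19.7% at 1000 UMIs), against 4.45% of EM and 4.04% of PBS cells gated as macrophages. Granzyme B (Gzmb), which activates caspases, stood at 4239 CPM in EM and 2653 CPM in PBS members, a log2 ratio of 0.68. The granule protein Nkg7 stood at 1703 CPM in EM and 1023 CPM in PBS members. Perforin (Prf1), which opens the target membrane, was lower, at 75.9 CPM in EM and 141.6 CPM in PBS members (−0.90, interval −1.17 to −0.63), and so was Fas ligand (Fasl), at 96 CPM in EM and 186.7 CPM in PBS members. Serpinb9, which protects killer cells from their own granzyme B, stood at 78.6 CPM in EM and 311.5 CPM in PBS members, a log2 ratio of −1.99 (−2.22 to −1.76). Granzyme F (Gzmf) was lower too, at 5.47 CPM in EM and 31.2 CPM in PBS members (−2.51, interval −3.42 to −1.69), with 16 UMIs in 6 EM cells and 54 UMIs in 11 PBS cells. Of the 18 cytotoxic genes measured, 9 were above equality and 9 below, 1 and 3 of them by at least 2-fold, and their median was −0.02, while the list's sum of 13197 CPM in EM and 8532 CPM in PBS members follows the abundant granzymes.

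By number of genes, secreted factors were mostly higher in EM members, while their sum was lower. Of 10 measured effector cytokines and chemokines, 7 were above equality and 3 at least 2-fold higher, with a median of 0.82. The list summed to 8370 CPM in EM and 9852 CPM in PBS members. The macrophage-inflammatory chemokines Ccl4, at 785.9 CPM in EM and 166.5 CPM in PBS members (2.24, interval 2.06 to 2.42), and Ccl3, at 265.2 CPM in EM and 66.5 CPM in PBS members (2.00), were the highest. Interferon gamma (Ifng) stood at 196.1 CPM in EM and 66.5 CPM in PBS members, a log2 ratio of 1.56 (1.27 to 1.86), and Tnf at 67 CPM in EM and 35.3 CPM in PBS members. Ccl5, the most abundant of the list, was lower, at 6707 CPM in EM and 9188 CPM in PBS members, and the death ligand Tnfsf10 stood at 101.1 CPM in EM and 152 CPM in PBS members.

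Immediate early genes, which are induced within minutes of receptor signals and also by tissue dissociation, were high in EM. Of 29, 19 were above equality, 12 of them at least 2-fold, and 3 were at least 2-fold lower, with a median of 0.57. The mRNA-decay factor Zfp36 stood at 701.2 CPM in EM and 145.7 CPM in PBS members, the AP-1 subunit Fosb at 951 CPM in EM and 228.3 CPM in PBS members, and the retention receptor Cd69 at 795.8 CPM in EM and 215 CPM in PBS members. Ier2 was lower, at 73.5 CPM in EM and 159.5 CPM in PBS members. The other CD8 T cells had a median of 0.51 for the list. Of 12 heat shock genes, 3 were at least 2-fold higher, with Hspa1a at 31.8 CPM in EM and 2.89 CPM in PBS members and Hspa1b at 39.6 CPM in EM and 3.47 CPM in PBS members.

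Transcription factors of effector and memory cells were divided, with 16 of 33 above equality and a median of −0.05. Eomes, a T-box factor of memory CD8 T cells, stood at 180.1 CPM in EM and 43.9 CPM in PBS members, a log2 ratio of 2.04 (1.69 to 2.40), whereas its relative Tbx21, which drives effector differentiation, stood at 126.4 CPM in EM and 120.2 CPM in PBS members. Irf4, induced by antigen receptor signals, stood at 51.6 CPM in EM and 11.6 CPM in PBS members. Runx1 stood at 61.5 CPM in EM and 122 CPM in PBS members.

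Genes of quiescence and recirculation were lower in EM members taken as a whole, and this depended on which members were read. Of 25 measured, 17 were below equality, 8 of them at least 2-fold, 1 was at least 2-fold higher, and the median was −0.42, or −0.091 with cells reduced to 1000 UMIs. Of all 9394 genes measured in members, only 3909 were above equality and 728 (7.75%) were at least 2-fold lower, with a median of −0.11. Ccr7 stood at 10.6 CPM in EM and 35.8 CPM in PBS members (−1.76, interval −2.43 to −1.11) and the interleukin 7 receptor Il7r, which sustains resting T cells, at 366.7 CPM in EM and 908.6 CPM in PBS members (−1.31). Klf2, which drives S1pr1 in resting T cells, was higher, at 337.9 CPM in EM and 100.6 CPM in PBS members (1.75, interval 1.52 to 1.99). In the other CD8 T cells the list median was 0.69, with 9 of 25 genes at least 2-fold higher in EM.

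Members without a Gzmk UMI held more of these transcripts. In EM 20 of 24 genes of the list and in PBS 20 of 23 were lower in members with Gzmk than in members without, with median log2 ratios of −0.43 in EM and −0.98 in PBS. Of all measured genes, 4320 of 8451 in EM and 4160 of 7784 in PBS were higher in members with Gzmk, with medians of 0.008 and 0.029. S1pr1 stood at 73.6 CPM in EM and 135.6 CPM in PBS members without Gzmk, and at 38.1 CPM in EM and 23 CPM in PBS members with Gzmk. Ccr7 stood at 16.3 CPM in EM and 53.9 CPM in PBS members without Gzmk, and at 4.32 CPM in EM and 6.12 CPM in PBS members with it. Among members without Gzmk the list median was −0.49, over 24 genes, and among members with Gzmk it was 0.50, over 21 genes. Tcf7 was higher in EM among members with Gzmk, at 91.4 CPM in EM and 21.4 CPM in PBS, and near equality among members without Gzmk, at 182.3 CPM in EM and 199.7 CPM in PBS.

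Of 16 tissue residence genes measured in PBS, 12 were higher in the 149 members with Gzmk than in members without, 3 of them at least 2-fold, with a median log2 ratio of 0.40. Of all 7784 genes measured there, 172 (2.21%) were at least 2-fold higher, with a median of 0.03. In EM, 8 of 16 tissue residence genes were higher in members with Gzmk, beside 4320 of all 8451 genes measured there. The following genes were picked for their values. Itga1, the collagen receptor CD49a, stood at 302.1 CPM in EM and 567.8 CPM in PBS members with Gzmk, and at 235 CPM in EM and 283.3 CPM in PBS members without it. Itgae, the epithelial integrin CD103, stood at 111.5 CPM in EM and 228 CPM in PBS members with Gzmk, and at 141.2 CPM in EM and 101.2 CPM in PBS members without it. Gzma stood at 5402 CPM in EM and 2853 CPM in PBS members with Gzmk, and at 2272 CPM in EM and 622.3 CPM in PBS members without it. Interferon genes, by contrast, had similar medians in both kinds of member, at 1.86 with Gzmk and 1.55 without. These sub-classes rest on single UMIs of Gzmk at unequal depth, so cells with unread Gzmk sit among those without.

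**Figure D4:**
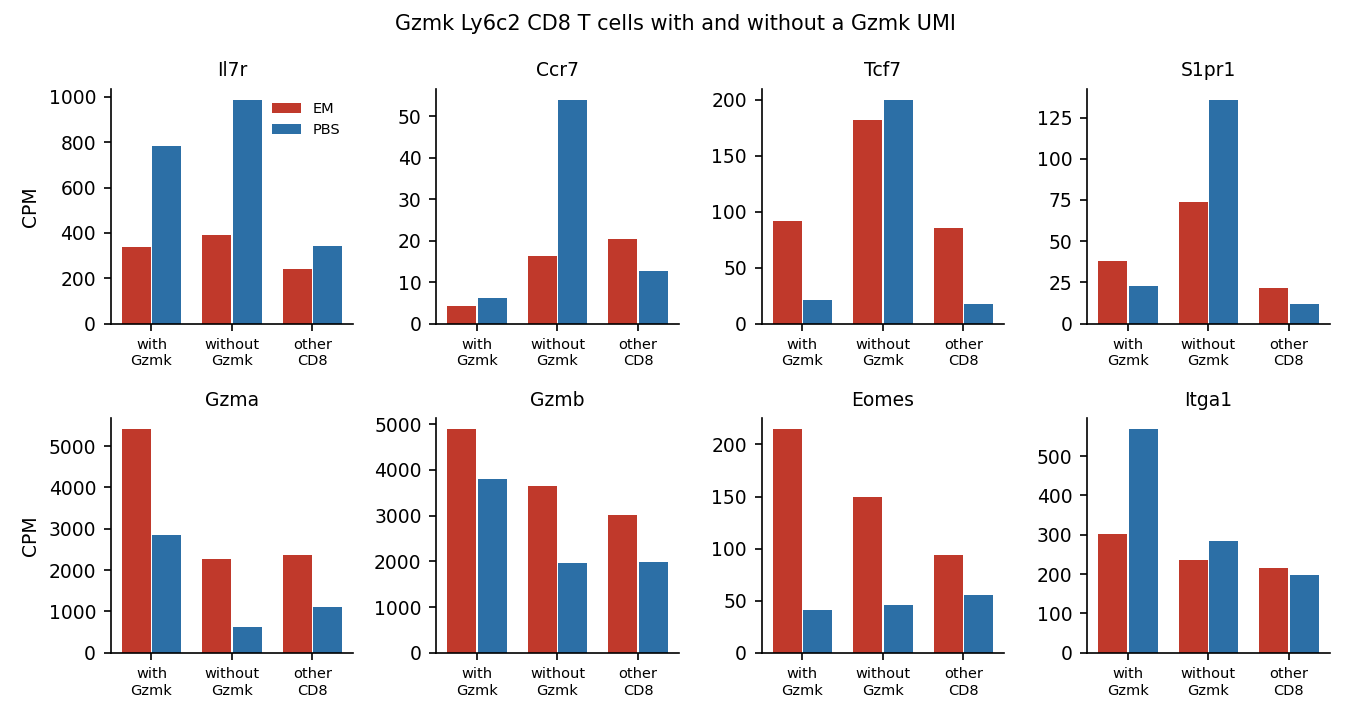
CPM (y axis) of 8 genes in Gzmk Ly6c2 CD8 T cells with and without a Gzmk UMI and in the other CD8 T cells, EM and PBS bars side by side, 1 library each and no error bars. Ccr7 is highest in PBS members without Gzmk (53.9 CPM), and Eomes is highest in EM members with Gzmk.

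Receptors for homing and for cytokines differed in part. Cxcr3, the receptor for interferon-induced chemokines, stood at 130.5 CPM in EM and 63.6 CPM in PBS members, Ccr2 at 399.1 CPM in EM and 175.7 CPM in PBS members, and the integrin chain Itgb1 at 623.3 CPM in EM and 233.5 CPM in PBS members (1.42, interval 1.26 to 1.58). The list's 23 measured genes had a median of 0.03, with 3 at least 2-fold higher and 2 at least 2-fold lower. Of 20 cytokine receptor genes, 6 were at least 2-fold lower in EM members. These included Il12rb2, at 41 CPM in EM and 139.3 CPM in PBS members, which overlaps Serbp1 on the other strand, and Il4ra, at 18.1 CPM in EM and 52.6 CPM in PBS members. The common gamma chain Il2rg stood at 851.5 CPM in EM and 417.3 CPM in PBS members. Among 17 tissue residence genes, whose median was −0.10, the ATP-gated channel P2rx7 stood at 45.8 CPM in EM and 160.7 CPM in PBS members.

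Inhibitory receptor and exhaustion genes were lower in EM members, though the rule had already left out cells with Pdcd1 or Havcr2. Of 29 measured, 26 were below equality, 11 of them at least 2-fold, and none reached 2-fold higher, with a median of −0.66. Lag3, a receptor for MHC class II, stood at 19.8 CPM in EM and 54.3 CPM in PBS members (−1.46, interval −1.95 to −0.97). Ctla4 stood at 223.1 CPM in EM and 461.8 CPM in PBS members, and the costimulator Tnfrsf9 at 43.4 CPM in EM and 104 CPM in PBS members. Tigit, at 12.3 CPM in EM and 17.9 CPM in PBS members, had an interval of −1.28 to 0.20. Tox, the factor that installs exhaustion, stood at 124.7 CPM in EM and 166.5 CPM in PBS members. The median was −1.07 in members with Gzmk and −0.40 in members without, and −0.77 in the other CD8 T cells.

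Killer-lectin receptors split by gene. Of 19 measured, 9 were at least 2-fold lower and 2 at least 2-fold higher in EM members, with a median of −0.91. Their sum went the other way, at 1698 CPM in EM and 1468 CPM in PBS members. The list median in the other CD8 T cells was 0.31, over 23 genes. It was −0.41, over 14 genes, in members with Gzmk and −0.30, over 18 genes, in members without. Klrg1, a receptor of short-lived effector cells, stood at 31.4 CPM in EM and 2.31 CPM in PBS members (3.77, interval 2.36 to 5.67), with 92 UMIs in EM and 4 in PBS. Klre1 stood at 167.4 CPM in EM and 57.2 CPM in PBS members. The Ly49 genes are near-identical paralogs, so their reads may be split uncertainly, and were sparse, Klra3 having 3 UMIs in EM and 38 in PBS members.

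Energy metabolism differed little in either sense. Of 17 glycolysis genes, 14 were below equality and 2 at least 2-fold lower, with a median of −0.33. Hexokinase 2 (Hk2) stood at 13 CPM in EM and 28.3 CPM in PBS members, and the glucose transporter Slc2a1 at 37.25 CPM in EM and 71.7 CPM in PBS members. Of 41 respiratory chain genes, 28 were above equality and none differed 2-fold, with a median of 0.18. The T cell receptor complex list had a median of 0.09 over 32 genes, with the phosphatase Ptpn22 at 696.7 CPM in EM and 1366 CPM in PBS members and the costimulator Cd28 at 372.5 CPM in EM and 214.4 CPM in PBS members. The 8 Gimap genes, GTPases of lymphocyte survival, had a median of 0.16, and the 18 S100 and annexin genes a median of 0.23, with none past 2-fold in either list. Of the 3 Ly6 family genes measured apart from Ly6c2, the median was 0.72, with Ly6a, the antigen Sca-1, at 1572 CPM in EM and 951.4 CPM in PBS members.

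**Figure D5:**
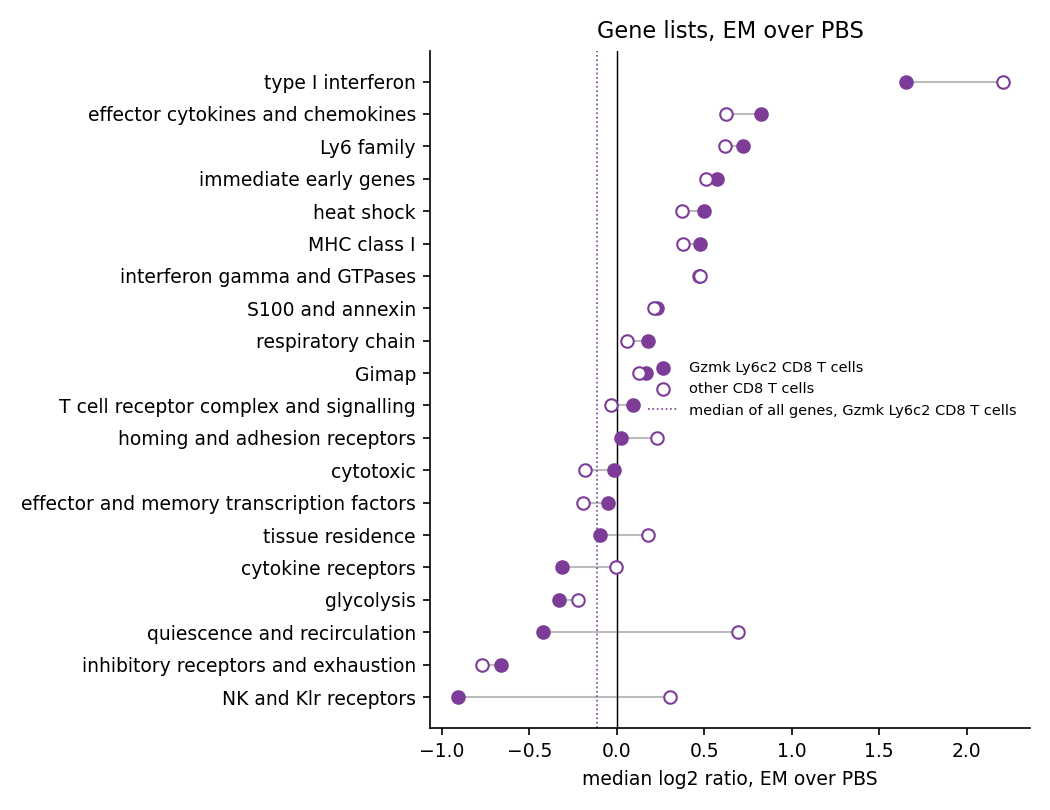
Median log2 ratio of EM over PBS (x axis) for each gene list (y axis) in Gzmk Ly6c2 CD8 T cells (filled) and other CD8 T cells (open), with the median of all measured genes in Gzmk Ly6c2 cells as a dotted line. Type I interferon stands highest in both. The medians of 2 lists lie far apart with opposite signs, NK and Klr receptors at −0.91 and 0.31 and quiescence and recirculation at −0.42 and 0.69. The sum of the NK and Klr list was higher in EM in Gzmk Ly6c2 cells too, at 1698 CPM against 1468 CPM in PBS.

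Several large ratios belonged to other genes. Wdr19, a component of ciliary transport, stood at 62.9 CPM in EM and 1.73 CPM in PBS members, a log2 ratio of 5.18 (3.61 to 7.47), with UMIs in 95 EM and 2 PBS cells. Ifitm1, which restricts virus entry, stood at 465.4 CPM in EM and 62.4 CPM in PBS members. Tex14, known from intercellular bridges of germ cells, was lower, at 358.8 CPM in EM and 2343 CPM in PBS members (−2.71, interval −2.81 to −2.61), and was found in 41.7% of EM and 95.7% of PBS members. Cpeb1, which controls polyadenylation in oocytes, stood at 89.9 CPM in EM and 379.2 CPM in PBS members. Ier5l stood at 3.76 CPM in EM and 50.9 CPM in PBS members, Ell2, an elongation factor, at 16.1 CPM in EM and 89.6 CPM in PBS members, and the metallothionein Mt2 at 9.91 CPM in EM and 54.9 CPM in PBS members. The same direction held for each of these genes in the other CD8 T cells, Tex14 for instance at 323.5 CPM in EM and 1491 CPM in PBS.

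A further group of low genes is better known from myeloid cells, and few cells carried them. For Cxcl9, 42 of 88 UMIs in PBS members lay in 1 cell, for Cxcl2 55 of 95 and for Il1b 32 of 114. Cxcl9 stood at 3.76 CPM in EM and 50.9 CPM in PBS members, and without the richest cell of each library its log2 ratio was −3.11 instead of −3.76. That of Cxcl2 was −1.69 instead of −2.47 and that of Il1b −2.95 instead of −2.38. The macrophage marker Apoe was carried likewise, with 106 of 240 UMIs of PBS members in 1 cell.

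Against the other CD8 T cells of their own library, Gzmk Ly6c2 cells held more transcripts of recirculation and of interferon response. These contrasts follow in part from the rule and are given as description. The rule leaves out cycling and checkpoint cells, and admits cells through Ly6c2, itself raised by type I interferon. In EM, 206 of 9896 measured genes (2.08%) were at least 2-fold higher and 527 (5.33%) at least 2-fold lower in members, and in PBS 457 of 11930 (3.83%) and 1373 (11.5%). In both libraries together, 62 of 9850 genes (0.629%) were at least 2-fold higher and 323 (3.28%) at least 2-fold lower, counts that came to 11 and 62 with cells reduced to 1000 UMIs. S1pr1 stood at 56.7 CPM in members and 21.6 CPM in other CD8 T cells of EM, and at 93.1 CPM in members and 11.6 CPM in other CD8 T cells of PBS. Klf3, a repressor of quiescent lymphocytes, stood at 91.6 and 32.2 CPM in EM and at 56.1 and 10.8 CPM in PBS, members before other CD8 T cells. Ifit1 stood at 287.7 CPM in members and 118.7 CPM in other CD8 T cells of EM, and at 91.3 CPM in members and 28.2 CPM in other CD8 T cells of PBS. Ccr2 stood at 399.1 CPM in members and 162.7 CPM in other CD8 T cells of EM, and at 175.7 CPM in members and 72.2 CPM in other CD8 T cells of PBS.

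By list, quiescence and recirculation genes had a median log2 ratio of members over other CD8 T cells of 0.61 in EM and 1.41 in PBS, where 17 of 25 genes were at least 2-fold higher. Glycolysis genes had medians of −0.72 in EM and −0.61 in PBS, S100 and annexin genes −0.66 and −0.45, respiratory chain genes −0.27 and −0.33, and Gimap genes 0.49 and 0.44, EM before PBS in each. Inhibitory receptor genes had medians of −0.71 in EM and −0.77 in PBS. Prf1 was lower in members of both libraries, at 75.9 CPM in members and 135.9 CPM in other CD8 T cells of EM, and at 141.6 CPM in members and 374.8 CPM in other CD8 T cells of PBS. The contrast for Ccl5 differed by library, with 6707 CPM in members and 3041 CPM in other CD8 T cells of EM but 9188 CPM in members and 8991 CPM in other CD8 T cells of PBS. Outside the cell cycle, the lowest gene by the smaller ratio of both libraries was Nrgn, a calmodulin-binding protein, at 11.3 CPM in members and 195.7 CPM in other CD8 T cells of EM, and at 23.7 CPM in members and 221.4 CPM in other CD8 T cells of PBS. Its cell cycle neighbours, such as Pclaf and Stmn1, follow from the rule.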

How the data were processed

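Each library was deposited as a sparse matrix of UMI counts by gene and barcode, which the values show to be whole numbers and unnormalized. The submitters' processing notes name CASAVA 1.8, STARsolo and the genome build mm10. No source used here gives the annotation, the strand setting or how cells were called. Cells with at least 500 UMIs, at least 200 genes and at most 20% mitochondrial UMIs were kept, which left 7967 EM cells (19302929 UMIs) and 7756 PBS cells (43538431 UMIs). No doublet caller was run, and an alternative left out cells with at least 2 UMIs of markers of B, plasma, macrophage, dendritic, neutrophil, erythroid or brain cells, with monocyte markers not used because T cells express Ccr2. Members, the gene lists and the rule for named genes were chosen with earlier results of these data known.

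Counts of all cells of a class were added up within each library and given as CPM, and the log2 ratio was taken without a pseudocount, with an exact conditional binomial 95% interval. Genes with at least 20 UMIs over both groups were measured. Genes of the rule were left out of the lists. With 1 library per group no test was made, a difference of 2-fold was the rule of size, and no p-values are given. The 12 highest and 12 lowest ratios of EM over PBS were named, then the 10 highest and 10 lowest of members over other CD8 T cells in both libraries. For these, a gene needed 50 CPM or more on 1 side of the ratio, 50 UMIs or more in all and an interval that does not hold equality. The 2 highest and 2 lowest per list needed only to be measured and to reach 10 CPM in 1 library. Further genes were named whatever their values. The text prints part of these, and some genes that stay in the list counts are not reported here. Stat2, Irf9, Usp18, Oas3, Fasl, Itga1, Itgae, Ctla4, Tnfrsf9 and Apoe fall outside that rule and were chosen after their values were seen. The Gzmk split and the counts of cells per gene were likewise added after seeing the data. Shares carry Clopper-Pearson intervals. Cells were thinned to 1000 UMIs without replacement. Of 31253 genes, 31107 were matched by identifier to GENCODE M21 (GRCm38, the assembly of mm10). Simulated counts with known folds were used to test the ratios and their intervals, and made cells to test the rule. Python 3.11.15, numpy 2.4.6, scipy 1.17.1, pandas 2.3.3, matplotlib 3.10.9 and edgeR 4.0.16 (TMM factors only) were used.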

Additional observations from a re-analysis of the deposited data

Results flagged for a closer look

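In 3 genes the ratio of EM over PBS passed 2-fold one way in Gzmk Ly6c2 CD8 T cells and the other way in the other CD8 T cells. With 1 library per group these differences were not tested. Nsg2, an endosomal protein gene, stood at 31.4 CPM in EM and 66.5 CPM in PBS Gzmk Ly6c2 cells, a log2 ratio of −1.08, and had a log2 ratio of 2.54 in the other CD8 T cells. Klrb1c, the NK cell receptor NK1.1, had a log2 ratio of −1.76 in Gzmk Ly6c2 cells, with 16 UMIs in EM and 32 in PBS, and 1.57 in the other CD8 T cells. Klra8, a Ly49 receptor, had a log2 ratio of −4.28 (interval −7.41 to −2.27, with 2 UMIs in EM) in Gzmk Ly6c2 cells and 2.84 in the other CD8 T cells, and 21 of its 23 UMIs in PBS Gzmk Ly6c2 cells lay in 1 cell. Without the richest cell of each library the log2 ratio of Klra8 was −1.76.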

How the results depend on the processing

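The share ratio of 4.22 was 6.5 at 1000 UMIs per cell and 4.92 with at least 3 UMIs of Gzmk and Ly6c2, and stayed within its interval under the other alternatives for it. The counts of genes at least 2-fold higher and lower in EM members, 391 and 728, were 699 and 412 at 1000 UMIs per cell, 182 and 204 with at least 100 UMIs per gene, and 721 and 1765 with at least 1 UMI in each library. The UMI limits test 6009 and 12614 genes in place of 9394. At 1000 UMIs per cell the genes tested (6005), the members (823 in EM and 140 in PBS) and the median of all genes (0.006) differ at once. The type I interferon median of 1.66 in members lay between 1.62 and 1.89 under all alternatives. In the other CD8 T cells, where it was 2.21, it was 1.99 at 1000 UMIs per cell. The quiescence and recirculation median of −0.42 was −0.091 at 1000 UMIs per cell and 0.61 with Gzmk required and Ly6c2 not used. With that last setting Ccr7 had a log2 ratio of 0.10, and with at least 3 UMIs of Gzmk and Ly6c2 that of Nrgn was 0.081, each opposite to its main sign. The cytotoxic median of −0.02, whose sign was never set, ran from −0.165 to 0.142. Genes at least 2-fold higher in members than in other CD8 T cells of both libraries, 62, were 11 at 1000 UMIs per cell, 25 with Gzmk required, 30 with equal weight per cell, 24 with at least 100 UMIs per gene and 173 with at least 1 UMI in each library. Those at least 2-fold lower, 323, were 62 at 1000 UMIs per cell and 147 with at least 100 UMIs per gene. A list median was taken as moved past the median half-width of its genes' intervals. Leaving out the barcodes shared by the libraries, added after seeing the data, moved none of these values past that spread. Of the named genes, the ratio lay outside its main interval for 87 of 128 at 1000 UMIs per cell, 47 of 137 with Gzmk required, 22 of 143 with TMM scaling and 21 of 142 without cells carrying markers of other types. It did so for at most 5 of 143 under each of the other alternatives, beside the reversals given. The cause of the other moves was not tested. No paired analysis was possible because each group has 1 library. The depth of EM cells, lower than that of PBS cells, limits sparse genes most.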
